A study of Mus musculus with 2 samples.

Results

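Mir191 and Mir425 are neighbouring microRNA genes on mouse chromosome 9, and they are 2 of the 2202 microRNA genes counted in left cerebral cortex. The pair was chosen by its genomic position with its read counts in these libraries already known, so its levels and ratios are described here without a test. The tissue came from 10-day-old female mice of strain B6CASTF1/J, whose parents come from C57BL/6J, a common laboratory strain, and from CAST/EiJ, which was derived from wild mice. The samples form a single group with no treatment, of 2 animals that the labels number as separate biological replicates, although both carry the same donor entry. The short fraction of total RNA from bulk tissue was sequenced, so fewer cells of a type and less microRNA per cell cannot be told apart.

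A microRNA gene is transcribed as part of a longer RNA that folds into a hairpin. Drosha and then Dicer cut the hairpin into a short duplex, and an Argonaute protein keeps a strand of it and uses the seed near its 5′ end to pair with messenger RNAs, which are then repressed. Genes that lie close together on the same strand are usually cut from a shared transcript, yet their mature RNAs can accumulate to different amounts because cutting and decay act on each hairpin. miR-191 is found in many tissues and is often used as a reference in small RNA measurements. In rodent hippocampal neurons it has been tied to the remodelling of dendritic spines during synaptic depression. miR-425 has mostly been studied in human tumours. The pair is usually described as lying within Dalrd3, a gene whose human protein takes part in the methylation of transfer RNA.

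The mature RNAs of both arms of each hairpin are shown with the seed in capitals (bases 2 to 8), because the seed determines which messenger RNAs a microRNA can pair with. The sequences are RefSeq's, on build GRCm38.p6.
miR-191-5p: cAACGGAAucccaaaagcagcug
miR-191-3p: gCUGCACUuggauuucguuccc
miR-425-5p: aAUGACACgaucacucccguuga
miR-425-3p: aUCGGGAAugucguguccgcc
No seed was shared between the members or between the arms of a hairpin. None of the 4 mature sequences occurred in a hairpin of another gene among the 1005 hairpins of the table. The seeds of miR-191-5p, miR-191-3p and miR-425-3p belonged to no other gene, as did 84.5% of the 1398 seeds in the table. The seed of miR-425-5p was shared with 1 other gene, Mir489.
miR-489-3p: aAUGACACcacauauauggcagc
miR-425-5p and miR-489-3p were identical over their first 8 bases and differed at the next.

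The hairpins are shown with both mature arms in capitals, because the deposited counts are per hairpin and sum the reads of the arms.
Mir191: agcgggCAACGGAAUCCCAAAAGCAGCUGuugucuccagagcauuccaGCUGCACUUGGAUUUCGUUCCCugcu
Mir425: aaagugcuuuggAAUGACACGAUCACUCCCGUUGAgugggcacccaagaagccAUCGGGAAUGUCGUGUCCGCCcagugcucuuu
The Mir191 hairpin is 74 bases long and that of Mir425 is 85 bases long. The predicted minimum free energy of folding was -35.0 kcal/mol for Mir191 and -31.7 kcal/mol for Mir425. In the predicted folds, 17 of the 23 bases of miR-191-5p paired with the opposite arm, against 14 of the 23 bases of miR-425-5p. All 7 seed bases of miR-191-5p were paired, and 5 of those of miR-425-5p. The GC content of the hairpins was alike, 54.1% in each.

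Mir191 (ENSMUSG00000105497.1) lies at chr9:108568319-108568392 and Mir425 (ENSMUSG00000065579.1) at chr9:108568777-108568861, both on the plus strand of mm10, with 384 bases between them. Mir191 is the upstream member. The annotation used for counting, release M21 of GENCODE, does not place them in Dalrd3. There Dalrd3 spans 108569886 to 108572774 and begins downstream of Mir425, with 1024 bases between them. Both hairpins instead lie inside 4833445I07Rik, a long non-coding RNA gene of the same strand (108567533 to 108569174). They fall within the single exon of its transcript 4833445I07Rik-201. In its transcript 4833445I07Rik-202, Mir191 lies in the intron between the exons that end at 108568180 and start at 108568484, and the last base of that transcript is 3 positions before the first base of Mir425. The RefSeq gene table gives Dalrd3 a longer span, 108567484 to 108572773, which holds both hairpins. Exons of that longer form were not analysed here, and counts of Dalrd3 itself were not part of these small RNA tables.

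**Figure D1:**
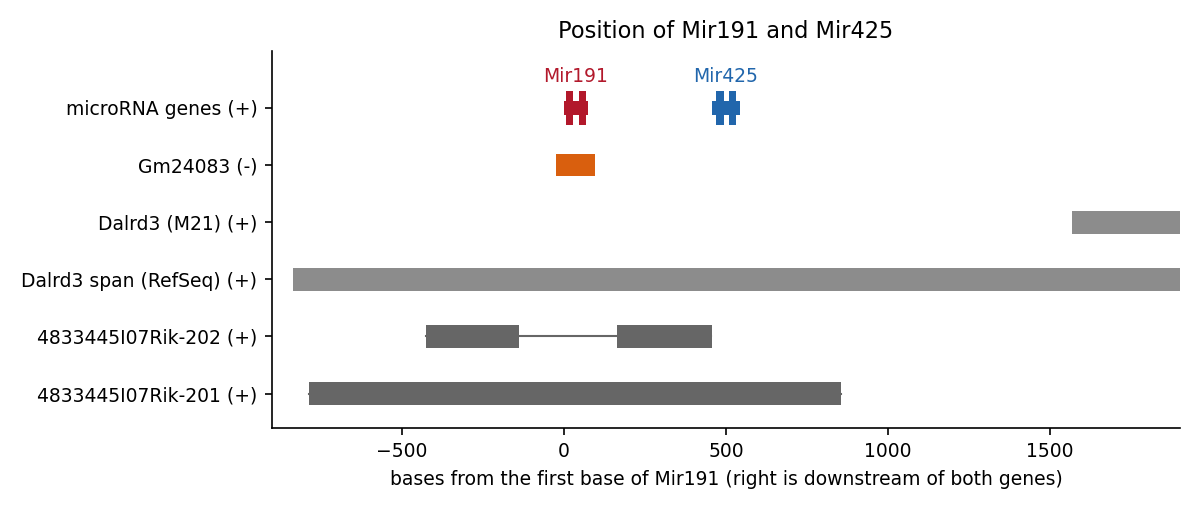
Genes around Mir191 and Mir425, with distance in bases from the first base of Mir191 on the horizontal axis and 1 annotated gene or transcript per line; thick bars on the top line are mature arms, blocks on the 4833445I07Rik lines are exons, and both Dalrd3 bars are spans that run past the right edge. Between Mir191 and Mir425 lie 384 bases. Of the 2 Dalrd3 spans drawn, the RefSeq one covers both genes and the M21 one covers neither.

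On the gene's own strand, animal 1 gave 3806078 reads assigned to a microRNA gene and animal 2 gave 2602935, or 33.5% and 30.4% of all reads. Of all reads, 42.7% and 40.4% mapped to several positions and stand apart from the genes. As a check of the labelled tissue, 6 neuron-enriched genes (Mir128-1, Mir128-2, Mir137, Mir132, Mir138-1 and Mir129-1) ran from 183 to 17136 CPM. CPM is a gene's share of the counted reads, scaled to a common library size so that a share of 0.0549% is 549 CPM. The liver gene Mir122 stood at 42.6 and 41.9 CPM in animals 1 and 2, the muscle gene Mir206 at 20.8 and 28.0 and the heart gene Mir208a at 3.94 and 3.46, while the muscle genes Mir1a-1 and Mir133a-1, which have other copies, had no read. Genes of the neuronal mir-124 and mir-9 families, which also have other copies, were outside the check and mostly low. Mir124a-1 stood at 3.42 and 2.69 CPM, Mir9-1 at 34.4 and 26.1 and Mir9-2 at 3.94 and 2.69, all below Mir122. Mir9-3 was above it, at 87.5 and 168 CPM.

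Mir191 was abundant among the counted reads of both animals. It had 30034 reads in animal 1 and 22477 in animal 2, which is 7891 and 8635 CPM. Its share of counted reads was 0.789% in animal 1 (Clopper-Pearson 95% interval 0.780 to 0.798) and 0.864% in animal 2 (0.852 to 0.875). The mean share was 0.826% ± 0.0526 (SD, n = 2). The intervals do not overlap, but they cover counting error only, with 1 library per animal. The files show no molecular identifiers, so the intervals are for reads and not for molecules. Shares and ranks leave out reads that map to several positions, so genes with other copies can stand too low beside Mir191. By mean CPM, Mir191 was 26th of the 2202 genes, at 8263 CPM ± 526 (SD, n = 2), and it ranked 26th in animal 1 and 24th in animal 2. Its neighbours in that order were Mir137, a neuronal microRNA, at 8583 CPM ± 983, and Mir151 at 7543 CPM ± 1621. Neither neighbour differed from Mir191 beyond the spread of the animals: Mir137 was above Mir191 in animal 1 and below it in animal 2, and Mir151 the reverse.

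Mir425 was far lower and less even. It had 2649 reads in animal 1 and 1044 in animal 2, which is 696 and 401 CPM. The share of counted reads was 0.0696% in animal 1 (0.0670 to 0.0723) and 0.0401% in animal 2 (0.0377 to 0.0426). The mean share was 0.0549% ± 0.0209 (SD, n = 2). Mir425 was thus the lower member in both animals, and its own level was higher in animal 1, while that of Mir191 was higher in animal 2. The mean level of Mir425 was 549 CPM ± 209 (SD, n = 2), rank 134 of the 2202 genes, and its rank was 126 in animal 1 and 138 in animal 2. Mir380, at 584 CPM ± 278, and Mir346, at 523 CPM ± 379, stood next to it, and neither differed from it beyond their spread. Both members reached 10 CPM in each animal, the threshold for detection, as did 13.9% of all microRNA genes.

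**Figure D2:**
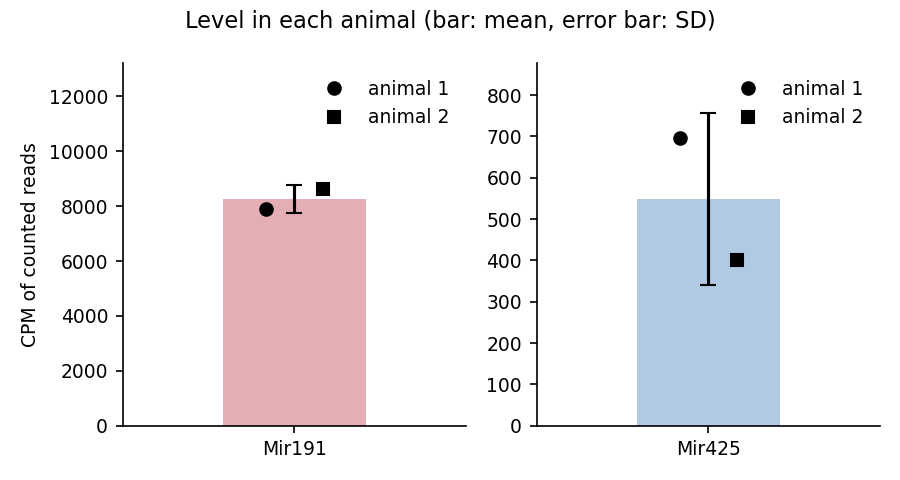
CPM of counted reads (vertical axes, from 0, on different scales) for Mir191 and Mir425; points are the animals, bars the mean and error bars the SD of the 2 animals. Mir191 stood at 7891 and 8635 CPM and Mir425 at 696 and 401 CPM in animals 1 and 2, so the members differ in opposite directions.

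**Figure D3:**
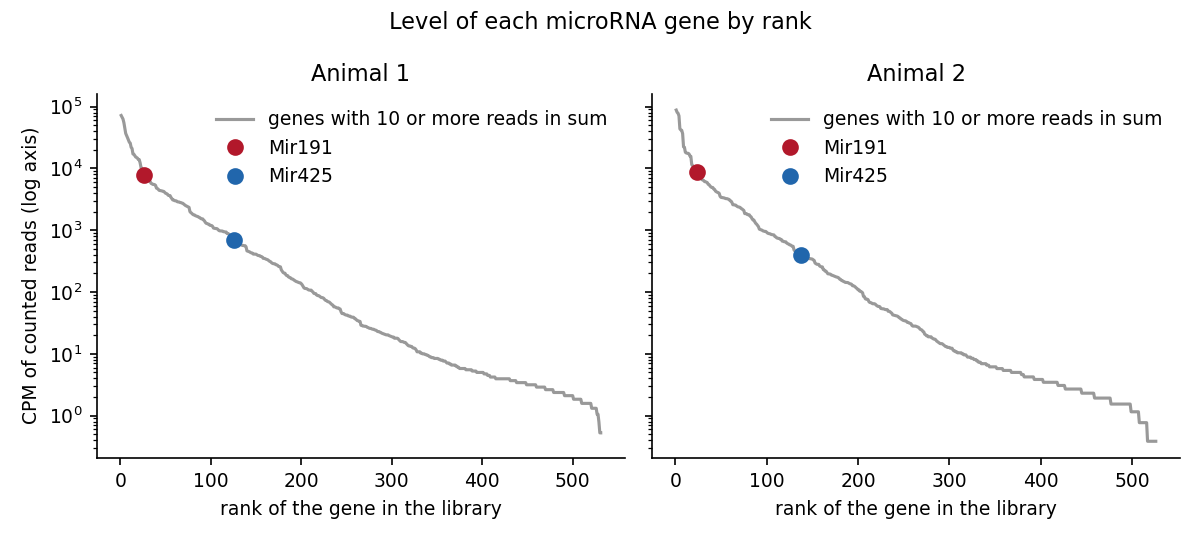
CPM of every gene with at least 10 reads summed over both libraries (log vertical axis) by rank within a library (horizontal axis), 1 panel per animal. Mir191 (red) sits on the steep early part of the curve, at ranks 26 and 24, and Mir425 (blue) further down, at ranks 126 and 138.

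Between the animals, the members lay on opposite sides of 1. After TMM scaling, the log2 ratio of animal 1 over animal 2 was -0.33 for Mir191 (exact binomial 95% interval -0.36 to -0.31, counting error only). Mir191 was therefore 1.26-fold higher in animal 2. For Mir425 the log2 ratio was 0.59 (0.49 to 0.70), so it was 1.51-fold higher in animal 1. These differences compare 2 libraries and no conditions.

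Differences of this size were common in these libraries. Neither member was at least 2-fold apart, whereas 23.7% of the 531 genes with at least 10 reads summed were. Of the 531 genes, 64.2% were at least as far apart between the animals as Mir191 and 43.3% at least as far apart as Mir425. Among genes within 2-fold of the member's own mean CPM, 16 of 31 were at least as far apart as Mir191 and 27 of 71 as Mir425. The biological coefficient of variation that edgeR fitted at the members' levels was 34.6% for Mir191 and 38.3% for Mir425. The signs held with library totals only (-0.13 for Mir191 and 0.79 for Mir425) and with DESeq2 size factors (-0.38 and 0.54). With all reads as denominator, Mir191 was slightly higher in animal 1 (2646.1 against 2628.5 CPM), so its sign did not hold there. Library totals moved the median log2 ratio of all genes by 0.20 from its value under TMM. Relative to the median gene, Mir191 stood at -0.38 and Mir425 at 0.55, a distance that no scaling of whole libraries can alter.

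**Figure D4:**
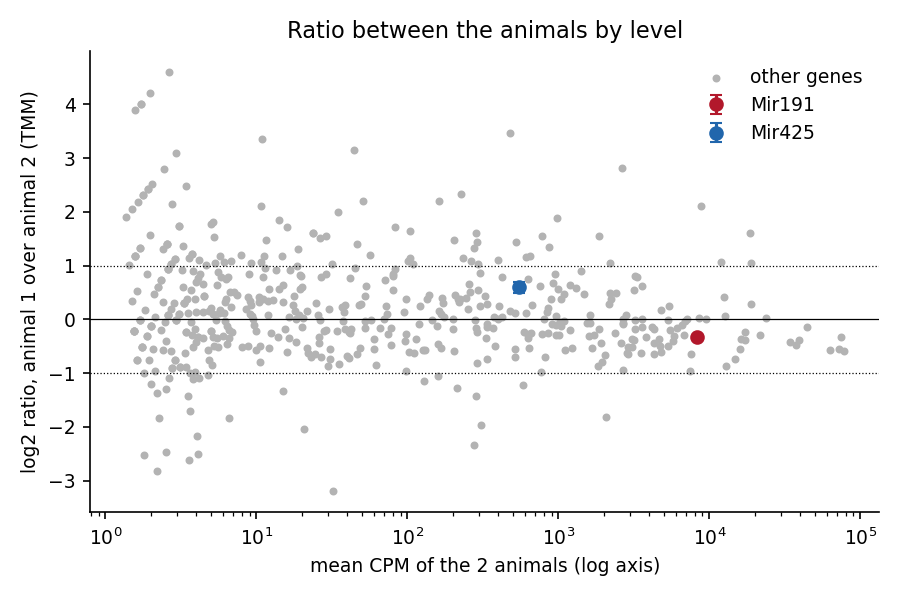
Log2 ratio of animal 1 over animal 2 after TMM (vertical axis) against mean CPM (log horizontal axis) for genes with at least 10 reads summed over both libraries; error bars on the members are exact 95% counting intervals and the dotted lines mark a 2-fold difference. Mir191 lies at -0.33 and Mir425 at 0.59, both inside the dotted lines.

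The ratio of the members' reads to each other needs no scaling between libraries. How reads relate to the number of molecules of each microRNA was not tested. In animal 1 there were 11.3 reads of Mir191 for each read of Mir425 (95% interval 10.9 to 11.8), and in animal 2 there were 21.5 (20.2 to 22.9). Mir425 thus made up 8.11% of the pair's reads in animal 1 (7.81 to 8.41) and 4.44% in animal 2 (4.18 to 4.71). As a log2 ratio of Mir191 over Mir425 these values were 3.50 and 4.43, a mean of 3.97 ± 0.65 (SD, n = 2). Mir191 exceeded Mir425 by more than the animals differed. The difference between the animals in this ratio was -0.92 on the log2 scale (interval -1.03 to -0.82, counting error only), or 1.90-fold. The summed share of the pair differed less, 0.859% of counted reads in animal 1 and 0.904% in animal 2. Mir191 supplied most of that sum and was higher in animal 2, while Mir425 was higher in animal 1.

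Other microRNA genes that lie close together, some of them farther apart than the members, served as a comparison. In 62 other pairs of same-strand neighbours at most 1000 bases apart, with at least 10 reads summed for each gene, the ratio of upstream to downstream reads moved by a median of 0.48 on the log2 scale between the animals. In 19 of the 62 pairs, or 30.6%, it moved at least as far as in Mir191 and Mir425. The higher gene of the pair was the same in both animals for 58 of the 62 pairs, as it was for Mir191. A mean log2 ratio at least as far from 0 as the 3.97 of the members was seen in 20 of the 62 pairs. Reads that map to several positions are not counted, which can lower a gene with other copies, such as Mir19b-1 with 12 and 7 reads. How many of the 20 ratios this affects was not tested. Some of these pairs share a gene or a cluster, with 24 of the 62 on chromosome 12, so they are not independent.

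Of these, the pairs closest to Mir191 and Mir425 in summed level were Mir181c with Mir181d, Mir23a with Mir27a, and Mir212 with Mir132. For Mir181c over Mir181d, of the mir-181 family, the log2 ratio was -0.42 in animal 1 and -1.37 in animal 2, a difference of 0.95. For Mir23a over Mir27a the ratio was 6.29 and 6.77, a difference of -0.48. For Mir212 over Mir132, whose transcription follows neuronal activity, it was -5.01 and -5.61, a difference of 0.60. The members' imbalance lay between that of Mir181c with Mir181d and those of the other pairs.

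**Figure D5:**
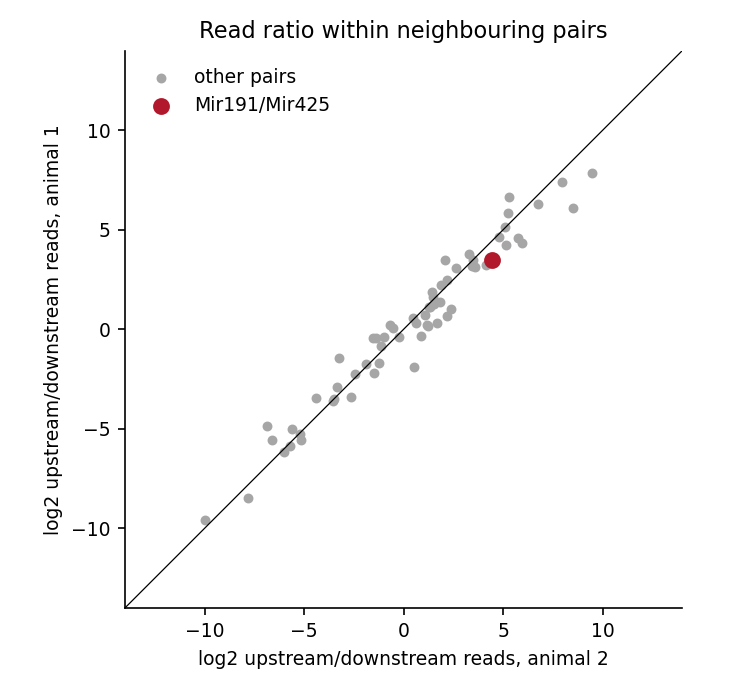
Log2 ratio of upstream over downstream reads within pairs of same-strand microRNA genes at most 1000 bases apart, in animal 1 (vertical axis) and animal 2 (horizontal axis); each point is a pair and the line marks equal ratios. Mir191 over Mir425 (red) lies at 3.50 in animal 1 and 4.43 in animal 2, below the line, among the 62 other pairs.

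The strand setting decides whether Mir191 is seen. M21 lists a further microRNA gene, Gm24083 (ENSMUSG00000092915.1), on the minus strand at chr9:108568295-108568414, and its 120 bases cover the whole Mir191 hairpin. On their own strand Mir191 had 30034 and 22477 reads while Gm24083 had 0 and 0, which allows up to 0.788 and 1.15 CPM in animals 1 and 2 (3 counts per library). The count on the strand opposite Gm24083 was 30034 and 22477, the same as the own-strand count of Mir191. In the unstranded column Mir191 had 0 reads in both animals. Its reads equalled 9.73% of the reads that column sets aside as ambiguous in animal 1 and 14.1% in animal 2. Of the 64 microRNA genes that overlap another on the opposite strand, Mir191 had the third highest own-strand count. Mir425 overlaps no such gene and had 2649 and 1044 reads in both the own-strand and the unstranded column. Neither member had a read on its opposite strand.

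Mir489, the only other gene with a miR-425 seed, had 0 reads in both libraries (up to 0.788 and 1.15 CPM). Mir425 was at least 883-fold higher than Mir489 in animal 1 and at least 348-fold higher in animal 2, with the floor of 3 counts per library for Mir489. The split of Mir425 reads between its 5p and 3p arms is not given by counts per hairpin.

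By the distance between their log2(CPM + 0.5) values over the 2 libraries, the genes most like Mir191 were Mir137, Mir151 and Mir324, at distances of 0.27, 0.30 and 0.37. Mir151 stood at 6397 and 8689 CPM in animals 1 and 2 and, like Mir191, was higher in animal 2. Mir137, at 9278 and 7888 CPM, and Mir324, at 10193 and 8850 CPM, were instead higher in animal 1. The genes most like Mir425 were Mir326, Mir125b-2 and Mir1981, at distances of 0.26, 0.34 and 0.38. Mir326 stood at 826 and 425 CPM, with a log2 ratio between the animals of 0.75 after TMM, and so was also higher in animal 1. Mir125b-2, a copy of the mir-125 family, stood at 575 and 460 CPM, and Mir1981 at 538 and 421 CPM. With 2 libraries, this likeness is mainly one of level.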

How the data were processed

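Per the labels, short RNA libraries of left cerebral cortex were made with a multiplexed microRNA protocol. The authors deposited whole-number read counts per hairpin gene, 1 table per library, for both strands, the gene's own strand and the opposite strand. The notes deposited with the tables name mm10 as the build and GENCODE M21 as the annotation. The aligning and counting programs were not given in the sources used here. Own-strand counts were used. In each table, 4 rows name no gene (unmapped, mapped to several positions, outside genes, ambiguous), together 66.5% and 69.6% of reads, and were left out of library sizes.

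CPM, exact Clopper-Pearson intervals and ranks were computed in Python 3.11.15 (pandas 2.3.3, numpy 2.4.6, scipy 1.17.1). TMM factors (1.07 and 0.932) and dispersions came from edgeR 4.0.16 in R 4.3.3 over the 531 genes with at least 10 counts summed, with an intercept-only design. Each count had 0.5 added before log2 ratios were taken. Intervals of ratios are exact conditional binomial ones. The interval of the change in the within-pair ratio is a normal approximation from the 4 counts. DESeq2 1.42.0 gave alternative size factors. Hairpins were folded with RNAfold 2.7.2. The procedures were tested on simulated data. Sequences are RefSeq's; both members matched by symbol, and their coordinates equal those of M21.

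The members, comparisons and lists were chosen with earlier results of these data known. The named genes are the members, the 3 genes nearest to each in level, genes sharing a seed, the 3 pairs nearest in summed level, the rank neighbours, the antisense gene and the tissue-check genes; the rank neighbours and the antisense gene were added after their values were seen, as was the window of 2-fold around a member's level.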

Additional observations from a re-analysis of the deposited data

How the results depend on the processing

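In the unstranded column the mean level of Mir191 was 0 CPM, because its reads were ambiguous with Gm24083, so no ratio with Mir425 could be had there. With all reads as denominator the mean levels were 2637 CPM for Mir191 and 178 for Mir425. Leaving out each animal in turn gave 7891 to 8635 CPM and rank 24 to 26 for Mir191, 401 to 696 CPM and rank 126 to 138 for Mir425, and 3.50 to 4.43 for the log2 ratio of Mir191 over Mir425. The log2 ratio between the animals kept its sign for both members with library totals, DESeq2 size factors and no filter on low counts. For Mir191 it was -0.13, -0.38 and -0.28 in that order, and for Mir425 it was 0.79 with library totals. With all reads as denominator, Mir191 was instead slightly higher in animal 1, at 2646.1 CPM against 2628.5 in animal 2. Mir425 stayed higher in animal 1, at 233 CPM against 122 in animal 2. Both members were detected at 1 CPM and at 100 CPM, as were 517 and 198 genes. The share of genes at least 2-fold apart was 26.7% with library totals, 23.2% with DESeq2 size factors and 17.6% among genes with at least 100 counts. The share of other pairs that moved at least as far was 29.9% within 10000 bases and 23.7% without chromosome 12, an alternative chosen after seeing the data. No paired analysis was possible because the series has a single group. With 2 animals an SD rests on a single difference, and leaving out an animal leaves the value of the other, which is no check of stability.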
